A study of Mus musculus with 16 samples.

Results

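Cytokine and lineage genes of helper T cells were followed across CD4+ T cells sorted from the mouse uterus and its lymph nodes. The set held 9 genes: the cytokines Ifng, Il2, Tnf, Il4, Il13, Il17a and Il21, the membrane ligand Cd40lg and the transcription factor gene Tbx21. They were taken as a list of symbols and looked up in the deposited count table, where all 9 were found among 49585 genes, 21734 of them protein-coding. Of the 9, 8 passed the filter on low counts and were tested, and Il13 did not.

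The samples were RNA-seq libraries of sorted cells from Foxp3 IRES-GFP reporter mice on a BALB/c background, in which Foxp3+ regulatory T cells (Treg) carry green fluorescent protein. Pregnant uterine Treg were Foxp3+CD25- cells of the uterus of pregnant mice, at days 6, 7 and 8 of pregnancy by the source labels, although the titles of 3 of the 4 libraries give a last day of 9, 10 or 11. Uterine Treg were Foxp3+CD25- cells of the non-pregnant uterus. Lymph node (below, node) Treg were Foxp3+CD25+ cells of the para-aortic lymph nodes of non-pregnant mice, so tissue and CD25 gate differ together between the last pair. CD4conv, the conventional T cells, were CD4+Foxp3- cells of the non-pregnant uterus. Each group had 4 libraries, and each library was a pool of 20 mice, or of 3 to 8 mice where pregnant. Libraries are numbered 1, 2, 3 and 4 in pregnant uterine Treg and 1, 2, 3 and 5 in the other groups, and values are given in that order. Pregnant uterine Treg and CD4conv were sequenced in batch 1, and uterine Treg and node Treg in batch 2, so batch and group cannot be told apart wherever these pairs are crossed.

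Helper T cells divide the work of CD4+ immunity by the cytokines they release. Type 1 helper (Th1) cells depend on T-bet, the product of Tbx21, and make interferon gamma; type 2 (Th2) cells depend on Gata3 and make Il4, Il5 and Il13; type 17 (Th17) cells make Il17a and Il22; follicular helper (Tfh) cells depend on Bcl6 and make Il21. Il2, Tnf and Cd40lg are induced soon after antigen receptor signals in conventional T cells of many kinds. Foxp3 represses Il2 in Treg, which then rely on interleukin 2 from other cells, and in the mouse uterus interferon gamma is known for its part in remodelling the arteries of the implantation site.

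Library size and the reads that fell outside T cell genes set how well these low-level transcripts could be measured. Total counts ran between 3573761 and 15190212 in pregnant uterine Treg, 2020507 and 5615096 in uterine Treg, 1718558 and 6298500 in node Treg, and 7674391 and 12302043 in CD4conv. An even background, the counts each exonic base would carry if reads fell on all of them as they did on 1427 olfactory and vomeronasal receptor genes, would account for 8.69% to 53.6% of a library, and exceeded 30% in 5 libraries. Counts are therefore also given as a multiple of that background. The summed level of 5 Treg identity markers was 1019 to 4067 CPM (counts scaled to the same total in each library) in pregnant uterine Treg, 1679 to 4057 CPM in uterine Treg, 2336 to 3659 CPM in node Treg and 150 to 362 CPM in CD4conv. The 7 T cell markers Cd3d, Cd3e, Cd3g, Cd4, Cd5, Cd28 and Lck summed to 1256 to 5216 CPM in pregnant uterine Treg, 1926 to 5871 in uterine Treg, 3587 to 4942 in node Treg and 1562 to 3630 in CD4conv, and Cd3e and Cd4 had counts in every library. In bulk samples of this kind, fewer cells that make a transcript and less of it per cell cannot be told apart.

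Among the 9 genes, Ifng, Tbx21 and Cd40lg had one shape: each CD4conv library lay above each of the 12 Treg libraries. Tnf and Il2 were also most abundant on average in CD4conv, which overlapped with some Treg groups. Il4, Il13, Il17a and Il21 overlapped between all groups; Il4 exceeded the even background in 13 of 16 libraries, Il17a in 7, Il21 in 3 and Il13 in 0. None of the 8 tested genes passed an adjusted p of 0.05 (edgeR, adjusted over 30096 genes) in any of the 4 comparisons. Against CD4conv, 0 of 8 were called lower in pregnant uterine Treg, where 0.399% of all tested genes were, and 0 of 8 in uterine Treg, where 0.485% were. None was called higher, against 0.0332% of tested genes in each comparison. Without adjustment, 5 of 8 had p below 0.05 and a negative fold change in pregnant uterine Treg against 3.7% of genes, namely Ifng, Il2, Tnf, Cd40lg and Tbx21. In uterine Treg 4 of 8 did, Ifng, Il2, Cd40lg and Tbx21, against 4.38% of genes. None had such a p and a positive fold change, against 1.09% of genes in pregnant uterine Treg and 0.954% in uterine Treg.

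**Figure D1:**
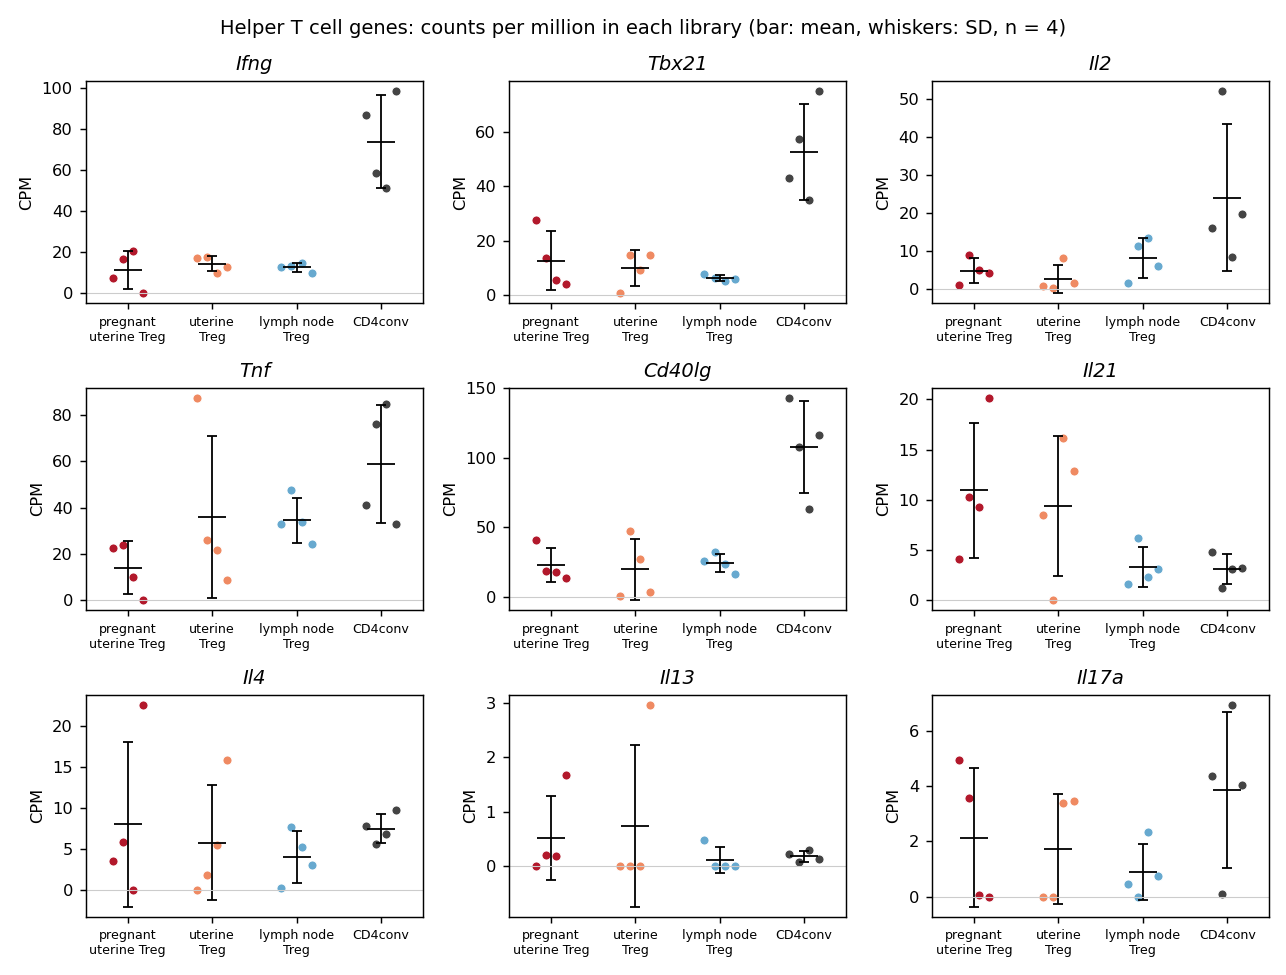
Level of each of the 9 genes in CPM (vertical axis) in every library of pregnant uterine Treg, uterine Treg, node Treg and CD4conv (horizontal axis, left to right); bars are means and whiskers SD, n = 4 libraries a group. Ifng, Tbx21 and Cd40lg have all CD4conv points above all Treg points, with the lowest CD4conv libraries at 51.3, 35.1 and 63.3 CPM. In the other 6 genes CD4conv overlaps with some or all Treg groups.

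The region just upstream of the start was read for the genes of the set that the RefSeq promoter table holds, 8 of 9, in build GRCm38.p6, with Cd40lg not among them. The windows of Ifng, Tbx21, Il2 and Tnf are shown because these genes had an unadjusted p below 0.05 against CD4conv in pregnant uterine Treg and because nuclear factor of activated T cells (NFAT), the calcium-driven activator that antigen receptor signals switch on, is known to act at cytokine genes. Each window is the 250 bases before the annotated start, 5′ to 3′ on the strand of the gene, and capitals mark matches to the NFAT core GGAAA on either strand (TTTCC on the other).
Ifng (chr10:118440796-118441045, plus strand): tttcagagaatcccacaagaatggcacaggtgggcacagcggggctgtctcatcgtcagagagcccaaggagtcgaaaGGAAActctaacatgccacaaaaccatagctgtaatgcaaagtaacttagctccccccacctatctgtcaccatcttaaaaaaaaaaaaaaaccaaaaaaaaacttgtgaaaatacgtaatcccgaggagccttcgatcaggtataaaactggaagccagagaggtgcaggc
Tbx21 (chr11:97115332-97115581, minus strand): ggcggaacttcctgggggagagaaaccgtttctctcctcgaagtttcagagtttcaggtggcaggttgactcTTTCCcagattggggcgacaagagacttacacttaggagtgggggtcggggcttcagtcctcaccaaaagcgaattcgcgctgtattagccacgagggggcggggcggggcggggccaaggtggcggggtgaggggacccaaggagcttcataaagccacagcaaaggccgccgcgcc
Il2 (chr3:37125955-37126204, minus strand): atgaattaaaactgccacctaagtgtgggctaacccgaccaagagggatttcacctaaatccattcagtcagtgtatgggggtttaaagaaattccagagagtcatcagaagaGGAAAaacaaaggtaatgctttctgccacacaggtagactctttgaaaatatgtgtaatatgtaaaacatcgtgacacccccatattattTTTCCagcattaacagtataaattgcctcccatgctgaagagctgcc
Tnf (chr17:35202008-35202257, minus strand): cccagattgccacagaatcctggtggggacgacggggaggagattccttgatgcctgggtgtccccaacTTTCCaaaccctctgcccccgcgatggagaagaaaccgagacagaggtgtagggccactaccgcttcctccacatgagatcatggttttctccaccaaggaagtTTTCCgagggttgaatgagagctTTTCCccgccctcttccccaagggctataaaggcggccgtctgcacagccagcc

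The Tnf window holds 3 such matches, that of Il2 holds 2, and those of Ifng and Tbx21 hold 1 each. The core is short, and 55.6% of 32851 windows of the same length in the table hold at least 1. The motif of AP-1, a partner of NFAT, was sought on both strands as TGANTCA and occurs in 6.75% of windows. That of T-box factors, to which T-bet belongs, was sought as TCACACC, which 3.33% of windows hold. The motif of the Gata3 family was sought as AGATAA and is found in 9.99%. The decamer of nuclear factor kappa B occurs in 1.41%, and it ends in the reverse of the NFAT core, so matches to both can overlap. None of these stood in the 4 windows shown. Of the other genes, Il21 had 3 NFAT matches, 1 of 2 windows of Il4 had 5 and the other none, Il13 had 4 and 1 Gata3 family match, and Il17a had 1 AP-1 match and no NFAT core. A match is a description of the letters only.

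Ifng (chromosome 10, 118441046 to 118445892, plus strand), which encodes the macrophage-activating cytokine of Th1 cells, was at 7.56, 16.7, 20.5 and 0 CPM in pregnant uterine Treg, 16.99, 17.5, 9.76 and 12.9 CPM in uterine Treg, 12.5, 13.3, 14.5 and 9.61 CPM in node Treg, and 86.9, 58.7, 51.3 and 98.4 CPM in CD4conv. All 4 CD4conv libraries were high and all 12 Treg libraries low, with no overlap, and the non-pregnant Treg libraries lay in a narrow band. The mean was 11.2 ± 9.24 CPM in pregnant uterine Treg, 14.3 ± 3.64 in uterine Treg, 12.5 ± 2.10 in node Treg and 73.8 ± 22.4 in CD4conv (SD, n = 4 each). The library at 0 is pregnant uterine Treg 4, which has the highest background (20.03 Ifng counts by the even estimate) and in which a count of 0 allows up to 0.839 CPM, counting error only.

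Against CD4conv, the log2 fold change of Ifng was -2.71 ± 0.79 (SE) in pregnant uterine Treg (edgeR adjusted p = 0.236) and -2.52 ± 0.79 in uterine Treg (adjusted p = 0.292). Restricting the fit to 4719 protein-coding genes whose mean share exceeded 5 times the background gave -2.63 ± 0.68 with adjusted p = 0.0224 in pregnant uterine Treg, where 4.28% of those genes were called lower and 4.11% higher. The same restriction gave -2.27 ± 0.67 with adjusted p = 0.0525 in uterine Treg, where 2.99% were called lower and 3.12% higher. DESeq2 called Ifng in pregnant uterine Treg (adjusted p = 0.0280). A fit of only the 2 groups called it in uterine Treg (adjusted p = 0.0349). Even in Treg the summed Ifng counts were above the even background, at 7.54 times in pregnant uterine Treg, 7.10 times in uterine Treg and 6.65 times in node Treg, against 46.0 times in CD4conv.

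Tbx21 (chromosome 11, 97098071 to 97115331, minus strand), the gene of the Th1 regulator T-bet, was at 27.6, 13.6, 5.33 and 4.20 CPM in pregnant uterine Treg, 0.708, 14.8, 9.34 and 14.8 CPM in uterine Treg, 7.62, 6.19, 5.24 and 5.81 CPM in node Treg, and 43.1, 57.5, 35.1 and 75.1 CPM in CD4conv. CD4conv libraries were again the highest, pregnant uterine Treg 1 came closest to them, and uterine Treg 1 had almost none. Means were 12.7 ± 10.8 CPM in pregnant uterine Treg, 9.92 ± 6.66 in uterine Treg, 6.22 ± 1.02 in node Treg and 52.7 ± 17.6 in CD4conv (SD, n = 4 each). In log2 terms the difference from CD4conv was -2.13 ± 0.76 in pregnant uterine Treg (edgeR adjusted p = 0.566) and -2.69 ± 0.79 in uterine Treg (adjusted p = 0.200). DESeq2 called the second (adjusted p = 0.0494). Summed counts were 4.16 times the even background in pregnant uterine Treg, 2.59 times in uterine Treg, 1.89 times in node Treg and 17.5 times in CD4conv, so the Treg levels of Tbx21 stood nearer to the background than those of Ifng.

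Cd40lg (chromosome X, 57212143 to 57224042, plus strand), the CD40 ligand through which helper T cells activate B cells and antigen-presenting cells, was at 40.7, 18.4, 17.6 and 13.7 CPM in pregnant uterine Treg, 0.708, 47.4, 26.7 and 3.46 CPM in uterine Treg, 25.6, 31.9, 23.3 and 15.9 CPM in node Treg, and 143, 108, 63.3 and 116 CPM in CD4conv. The CD4conv libraries did not overlap any Treg group, and uterine Treg were split between low and moderate libraries. Means were 22.6 ± 12.2 CPM in pregnant uterine Treg, 19.6 ± 21.9 in uterine Treg, 24.2 ± 6.60 in node Treg and 108 ± 33.2 in CD4conv (SD, n = 4 each). Against CD4conv, its log2 fold change was -2.32 ± 0.82 in pregnant uterine Treg (edgeR adjusted p = 0.546) and -2.50 ± 0.83 in uterine Treg (adjusted p = 0.374). Without uterine Treg 2, its highest library in that group, the second was -3.99 with adjusted p = 0.0452. In the genes above background the adjusted p was 0.0703 in pregnant uterine Treg and 0.0504 in uterine Treg.

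Il2 (chromosome 3, 37120523 to 37125959, minus strand), which encodes the growth factor that Treg take up but do not normally make, was at 1.08, 8.99, 5.00 and 4.20 CPM in pregnant uterine Treg, 0.708, 0.178, 8.06 and 1.48 CPM in uterine Treg, 1.59, 11.4, 13.4 and 6.07 CPM in node Treg, and 16.0, 52.2, 8.35 and 19.7 CPM in CD4conv. CD4conv 2 had by far the highest, and CD4conv 3 lay within the Treg range. The log2 fold change against CD4conv was -2.89 ± 0.91 in pregnant uterine Treg (edgeR adjusted p = 0.349) and -3.98 ± 0.98 in uterine Treg (adjusted p = 0.0735). The second is the lowest adjusted p of the set over all genes. It was 0.0190 without uterine Treg 3, with a log2 fold change of -5.65, 0.0345 without the filter on low counts, and 0.00537 with DESeq2. Without CD4conv 2 the fold change moved to -2.82 with adjusted p = 0.549.

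The summed Il2 counts of uterine Treg were 1.03 times the even background, those of pregnant uterine Treg 2.58 times, those of node Treg 3.59 times and those of CD4conv 19.1 times. Of the uterine Treg libraries, 1 of 4 exceeded its own even background for Il2. With an alternative background, from 368 crystallin, keratin-associated and vomeronasal genes, the multiples were 5.47 in pregnant uterine Treg, 2.28 in uterine Treg, 7.32 in node Treg and 40.4 in CD4conv. Il2 shares 1408 bases with Adad1, a gene of testis on the opposite strand, and the library kits do not mark strand. Adad1 was at 12.3 CPM in pregnant uterine Treg, 8.93 CPM in uterine Treg, 7.69 CPM in node Treg and 11.3 CPM in CD4conv on average, with overlapping libraries, so reads of the pair cannot be told apart where they overlap.

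Tnf (chromosome 17, 35199381 to 35202007, minus strand), the inflammatory cytokine made by activated T cells and macrophages, was at 22.6, 24.0, 10.01 and 0.280 CPM in pregnant uterine Treg, 87.4, 26.0, 21.6 and 8.91 CPM in uterine Treg, 33.0, 47.6, 33.7 and 24.3 CPM in node Treg, and 41.1, 76.2, 84.6 and 33.1 CPM in CD4conv. Pregnant uterine Treg lay below every CD4conv library, whereas uterine Treg 1 exceeded all of them. Against CD4conv, its log2 fold change was -2.27 ± 0.83 in pregnant uterine Treg (edgeR adjusted p = 0.605) and -0.97 ± 0.80 in uterine Treg (adjusted p = 0.999). Pregnant uterine Treg were also lowest among the Treg, at 14.2 ± 11.2 CPM against 36.0 ± 35.0 CPM in uterine Treg, a log2 fold change of -1.29 ± 0.81 (adjusted p = 1.00). Without uterine Treg 1 it was -0.34.

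**Figure D2:**
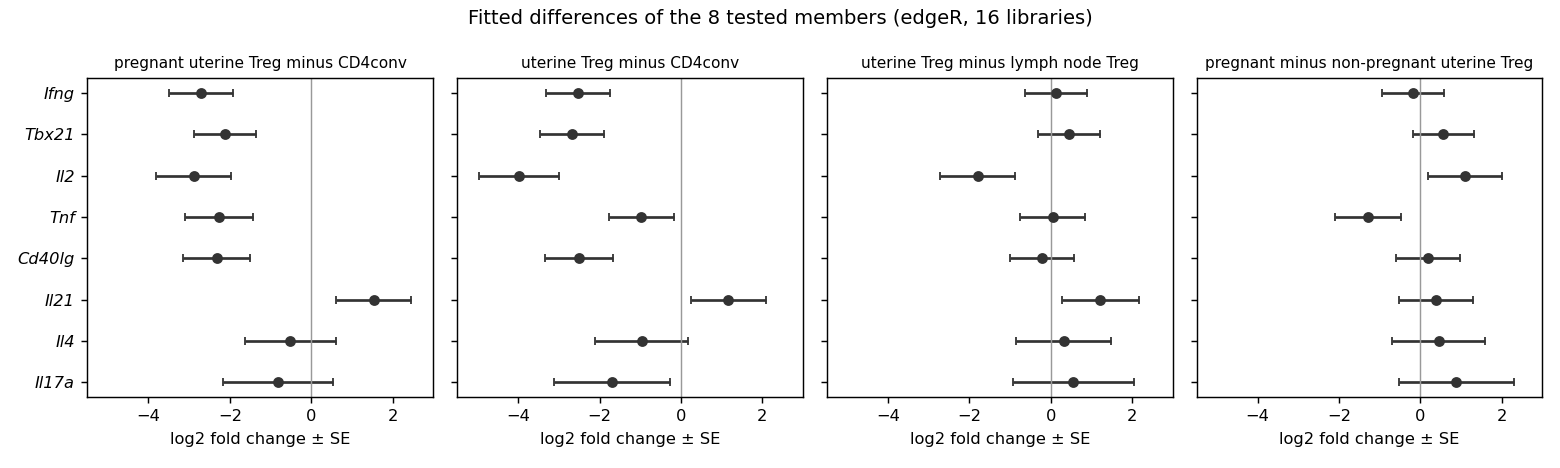
Log2 fold change of the 8 tested genes in the 4 comparisons named above the panels, first group minus second (horizontal axis; points are the edgeR estimates over 16 libraries and whiskers the SE). In the left pair of panels 7 of 8 genes lie left of 0 and Il21 lies right of it, while in the right pair the estimates scatter around 0.

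The number of genes without any overlap between groups was counted as a second reading of these values. In pregnant uterine Treg, 4 of 8 tested genes (Ifng, Tnf, Cd40lg and Tbx21) had every library below every CD4conv library, as did 3.05% of all tested genes. In uterine Treg, 4 of 8 did (Ifng, Il2, Cd40lg and Tbx21), as did 2.65% of all. None lay wholly above CD4conv, against 1.31% of genes in pregnant uterine Treg and 1.68% in uterine Treg. The median log2 fold change of the 8 genes was -2.20 in pregnant uterine Treg and -2.09 in uterine Treg, beside 0.073 and -0.046 over all genes tested. The comparisons share the CD4conv libraries, so they are not separate evidence.

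Il21 (chromosome 3, 37222759 to 37232636, minus strand), the Tfh cytokine that drives germinal centre B cells, was the only tested gene with a positive fold change against CD4conv. Its level was 4.09, 10.2, 9.22 and 20.1 CPM in pregnant uterine Treg, 8.49, 0, 16.1 and 12.9 CPM in uterine Treg, 1.59, 6.19, 2.33 and 3.03 CPM in node Treg, and 4.81, 1.22, 3.12 and 3.13 CPM in CD4conv. Uterine libraries of Treg were often the highest, but 1 of them had no count and the groups overlapped. In log2 terms the difference from CD4conv was 1.54 ± 0.92 in pregnant uterine Treg and 1.17 ± 0.92 in uterine Treg (edgeR adjusted p = 1.00 and 0.999).

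The exons annotated to Il21 are long, 5259 bases, and its summed counts were 1.19 times the even background in pregnant uterine Treg, 0.788 times in uterine Treg, 0.375 times in node Treg and 0.465 times in CD4conv. The library with most Il21, pregnant uterine Treg 4, is also the one with most background (53.6% of its counts), and its 72 Il21 counts compare with 81.3 that the background would give. With the alternative background the multiples were 2.52 in pregnant uterine Treg, 1.74 in uterine Treg, 0.767 in node Treg and 0.981 in CD4conv, and 33.5 Il21 counts would be its share in pregnant uterine Treg 4. The part of the background in the Il21 difference was not tested. Il21 also overlaps an antisense gene model, Gm12534, and the 2 cannot be told apart without strand.

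Il4 (chromosome 11, 53602982 to 53618669, minus strand), the cytokine that directs Th2 differentiation and antibody class switching, was at 3.47, 5.85, 0 and 22.7 CPM in pregnant uterine Treg, 0, 1.78, 5.52 and 15.8 CPM in uterine Treg, 0.159, 7.62, 5.24 and 3.03 CPM in node Treg, and 7.76, 5.61, 6.84 and 9.77 CPM in CD4conv. CD4conv libraries held a steady low level, whereas both uterine Treg groups ran between none and more than any CD4conv library. The SD was 10.1 CPM in pregnant uterine Treg and 7.09 CPM in uterine Treg, against 1.76 CPM in CD4conv. The log2 fold change against CD4conv was -0.51 ± 1.12 in pregnant uterine Treg and -0.96 ± 1.14 in uterine Treg (edgeR adjusted p = 1.00 and 0.999). The highest values, in pregnant uterine Treg 4 and uterine Treg 5, fell in libraries with 53.6% and 34.9% background, although the 81 and 32 counts were above the 19.0 and 6.99 that an even background would give.

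Il13 (chromosome 11, 53631324 to 53634702, minus strand), the Th2 cytokine of epithelial and mucus responses, lies 12654 bases from Il4. It had 26 counts in all 16 libraries, against 166 from an even background, and did not enter the tests. The counts were 0, 1, 3 and 6 in pregnant uterine Treg, 0, 0, 0 and 6 in uterine Treg, 3, 0, 0 and 0 in node Treg, and 2, 1, 3 and 1 in CD4conv. At these depths a count of 0 allows up to 0.197 to 1.75 CPM per library, counting error only. Il13 was at or near nothing everywhere. Its counts lay below the even background in all 16 libraries, so that background is an average over silent genes and not a floor under each gene.

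Il17a (chromosome 1, 20730905 to 20734496, plus strand), the Th17 cytokine that recruits neutrophils, was at 4.94, 3.55, 0.0658 and 0 CPM in pregnant uterine Treg, 0, 0, 3.40 and 3.46 CPM in uterine Treg, 0.476, 0, 2.33 and 0.758 CPM in node Treg, and 4.37, 0.0813, 6.94 and 4.04 CPM in CD4conv. In every group some libraries had a few CPM and others almost none. In log2 terms the difference from CD4conv was -0.81 ± 1.35 in pregnant uterine Treg and -1.69 ± 1.42 in uterine Treg (edgeR adjusted p = 1.00 and 0.999). Summed counts were 1.40 times the even background in pregnant uterine Treg, 0.604 times in uterine Treg, 0.432 times in node Treg and 2.58 times in CD4conv. With the alternative background they were 2.96 in pregnant uterine Treg, 1.34 in uterine Treg, 0.883 in node Treg and 5.45 in CD4conv.

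**Figure D3:**
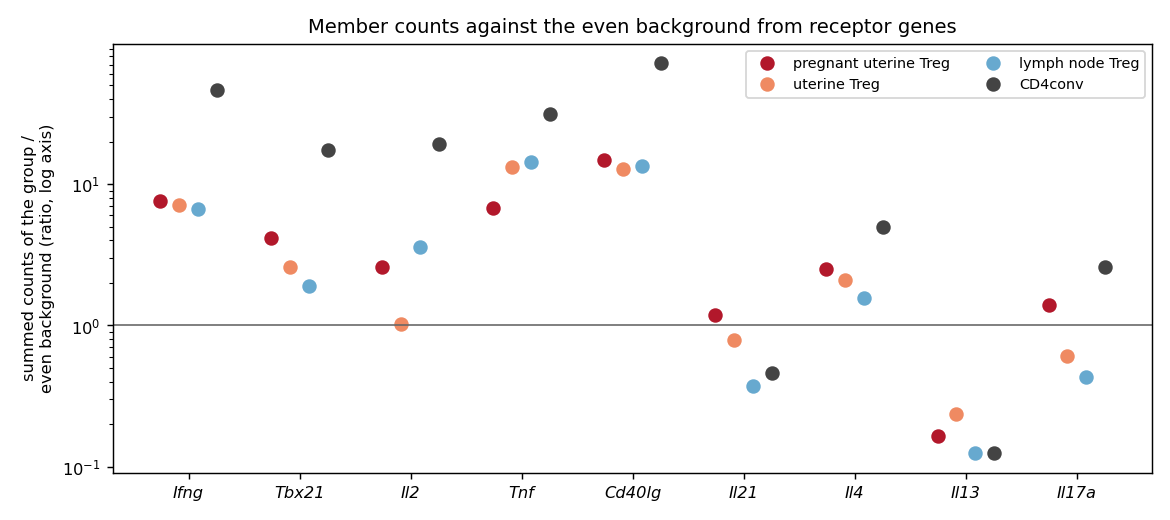
Summed counts of each gene in a group divided by those an even background would give (vertical log axis), for pregnant uterine Treg, uterine Treg, node Treg and CD4conv (left to right within each gene). The line at 1 marks the background: Cd40lg in CD4conv reaches 71.3 and Ifng 46.0, while Il13 stays at 0.235 or less in all 4 groups.

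Set on a scale of length, as CPM per kilobase of exon, the order of the genes in CD4conv was Cd40lg at 86.1 ± 26.5, Ifng at 57.0 ± 17.3, Tnf at 35.9 ± 15.5, Tbx21 at 21.2 ± 7.06, Il2 at 21.02 ± 16.9, Il4 at 6.11 ± 1.43, Il17a at 3.295 ± 2.42, Il21 at 0.584 ± 0.279 and Il13 at 0.152 ± 0.0809 (SD, n = 4). Tbx21 and Il2 differ by far less than their spread. In pregnant uterine Treg the highest per kilobase was Cd40lg at 18.1 ± 9.78, and in uterine Treg and node Treg it was Tnf, at 22.0 ± 21.4 and 21.2 ± 5.90.

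In the order of the 4 group means, 3 steps down from CD4conv exceeded the larger SD of the neighbouring groups: to uterine Treg for Ifng, to node Treg for Cd40lg and to pregnant uterine Treg for Tbx21. For Tnf the step that did was that between node Treg and pregnant uterine Treg (34.7 and 14.2 CPM), a pair that was not tested. At the remaining steps the difference was smaller than the larger SD.

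Uterine Treg and node Treg, both of batch 2, differ in tissue and in the CD25 gate together, which cannot be told apart here. None of the 8 genes was called, and neither was any other, 0% of tested genes in both directions. No member had p below 0.05 in that comparison, against 1.32% of genes higher and 1.69% lower. Il2 had the lowest p, with 2.61 ± 3.68 CPM in uterine Treg, against 8.12 ± 5.34 CPM in node Treg (SD, n = 4 each), a log2 fold change of -1.80 ± 0.93 (edgeR adjusted p = 1.00). None of the 8 was free of overlap, against 1.22% of genes higher and 2.18% lower. Among the genes above background none of the 3 members there was called, against 0.932% higher and 0.36% lower. The median fold change of the 8 was 0.23, beside -0.057 over all genes. Levels of Ifng were 14.3 ± 3.64 CPM in uterine Treg and 12.5 ± 2.10 CPM in node Treg, closer than the spread within either group.

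Pregnant uterine Treg set against uterine Treg ask what early pregnancy changes, across the batches. None of the 8 was called, as for all tested genes, 0% in both directions, and none had p below 0.05, against 1.77% of genes higher and 0.96% lower. None was free of overlap, against 0.532% of genes higher and 0.498% lower. Il2 was at 4.82 ± 3.25 CPM in pregnant uterine Treg and 2.61 ± 3.68 CPM in uterine Treg, a log2 fold change of 1.09 ± 0.91 (SE, edgeR adjusted p = 1.00). The median of the 8 was 0.41, beside 0.105 over all genes. With these SE, between 0.75 and 1.49 on the log2 scale, changes of modest size could not be detected in either comparison.

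The sorted CD4conv also held transcripts of other cell types. Sums of natural killer, CD8 and gamma delta T cell, and dendritic cell markers were higher in every CD4conv library than in any Treg library. Those of macrophage markers overlapped, as did those of the B cell, mast cell and uterine stroma lists. The summed level of 10 natural killer (NK) cell markers was 40.4 to 112 CPM in pregnant uterine Treg, 45.6 to 101 in uterine Treg, 35.6 to 66.3 in node Treg and 456 to 1810 in CD4conv. Tyrobp alone gave 654, 1267, 900 and 274 CPM of the CD4conv sums. Ncr1 was at 24.8, 32.4, 20.4 and 11.6 CPM there and at 20.1 CPM in pregnant uterine Treg 4, and Eomes overlapped between groups. For 5 CD8 and gamma delta T cell markers the sums were 23.2 to 44.7 CPM in pregnant uterine Treg, 6.37 to 53.9 in uterine Treg, 31.1 to 52.9 in node Treg and 154 to 358 in CD4conv. Of these CD4conv sums, Cd8b1 gave 286, 295, 300 and 119 CPM, and Cd8a 35.2, 55.0, 36.9 and 20.3 CPM. For 10 macrophage and monocyte markers they were 66.4 to 330, 175 to 1028 and 31.8 to 93.1 CPM in these Treg groups and 151 to 9843 in CD4conv. The 9 dendritic and plasmacytoid dendritic cell markers summed to 229 to 777 CPM in pregnant uterine Treg and 131 to 439 in uterine Treg. In node Treg they summed to 181 to 405 CPM and in CD4conv to 2440 to 5744 CPM. Against CD4conv, 0.399% of all tested genes were called lower in pregnant uterine Treg and 0.485% in uterine Treg. In pregnant uterine Treg 5 of 9 dendritic, 2 of 9 tested NK, 1 of 5 CD8 and gamma delta and 3 of 10 macrophage markers were called lower. In uterine Treg 7 of 9, 2 of 9, 2 of 5 and 3 of 10 were. No marker of these 4 lists was at 0 in every library of a group, and their part in the Ifng, Tbx21 and Tnf levels was not tested. NK and CD8 T cells make Ifng and Tbx21, and macrophages make Tnf.

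Within CD4conv the libraries differed in these markers. CD4conv 5 had the lowest sums of NK, CD8 and gamma delta, macrophage and dendritic cell markers of the 4 (456, 154, 151 and 2440 CPM) and the highest Ifng and Tbx21, at 98.4 and 75.1 CPM. CD4conv 3 had the highest macrophage sum (9843 CPM) and the lowest Ifng, Tbx21 and Cd40lg, at 51.3, 35.1 and 63.3 CPM, but the highest Tnf, at 84.6 CPM. Tnf was highest in CD4conv 3 and 2, the libraries with most macrophage markers, and without them the Tnf fold change of uterine Treg against CD4conv was 0.034. In CD4conv 1 and 5 Tnf was at 41.1 and 33.1 CPM, still above every pregnant uterine Treg library (0.280 to 24.0 CPM). Without CD4conv 2 and 3, the Ifng fold change was -2.64 in uterine Treg and -2.81 in pregnant uterine Treg (edgeR adjusted p = 1.00 in both, 2 CD4conv libraries left).

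The share of T cell transcripts differed between libraries. Each level was therefore also divided by the sum of the 7 T cell markers of its own library, a scale chosen after the data were seen. Apart from Cd4, these are markers of T cells in general. The scale does not set CD4+ T cells apart from CD8 and gamma delta T cells, whose markers were higher in CD4conv. Per 1000 CPM of T cell markers, Ifng was 1.45, 5.96, 4.16 and 0 in pregnant uterine Treg, 2.89, 3.35, 3.25 and 6.68 in uterine Treg, 2.54, 3.14, 4.06 and 2.32 in node Treg, and 24.2, 25.5, 32.8 and 27.1 in CD4conv. The T cell marker sum averaged 2772 CPM in CD4conv, against 3554 in pregnant uterine Treg, 4003 in uterine Treg and 4231 in node Treg. Dividing by it raised CD4conv relative to Treg on average. The CD4conv libraries, already apart in CPM, stayed clear of all Treg on this scale. In CD4conv the coefficient of variation was 13.9% on it and 30.4% in CPM for Ifng, 15.2% and 30.8% for Cd40lg, 28.3% and 33.3% for Tbx21, 93.2% and 80.5% for Il2, and 78.3% and 43.3% for Tnf, whose highest values were again in CD4conv 2 and 3. In the Treg groups that of Ifng was larger on this scale than in CPM, at 92.5% and 82.5% in pregnant uterine Treg, 43.8% and 25.5% in uterine Treg and 25.8% and 16.8% in node Treg.

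Cd40lg per 1000 CPM of T cell markers averaged 7.21 ± 3.05 in pregnant uterine Treg, 4.98 ± 4.69 in uterine Treg, 5.75 ± 1.59 in node Treg and 39.8 ± 6.06 in CD4conv (SD, n = 4 each). Tbx21 averaged 3.64 ± 1.90 in pregnant uterine Treg, 3.44 ± 3.15 in uterine Treg, 1.47 ± 0.0574 in node Treg and 20.0 ± 5.66 in CD4conv. For both, as for Ifng, the lowest CD4conv library exceeded the highest Treg library.

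**Figure D4:**
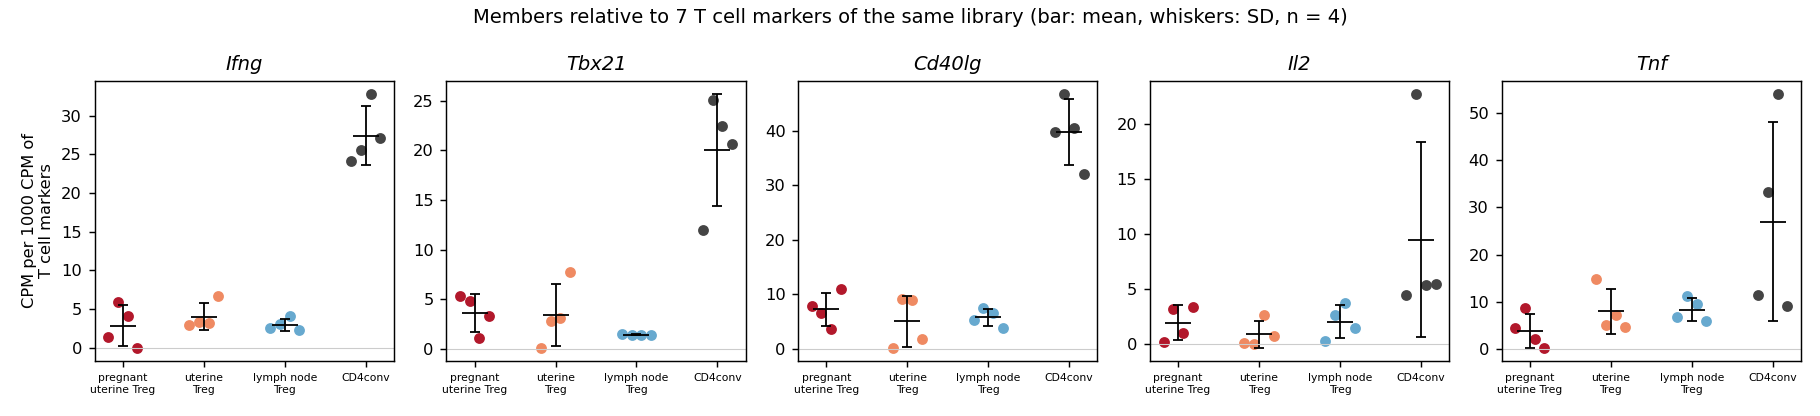
Level of 5 genes per 1000 CPM of 7 T cell markers in the same library (vertical axis) in pregnant uterine Treg, uterine Treg, node Treg and CD4conv (left to right); bars are means and whiskers SD, n = 4. Ifng, Tbx21 and Cd40lg separate CD4conv from all Treg, with lowest CD4conv values of 24.2, 11.97 and 32.1, whereas Il2 and Tnf spread widely within CD4conv.

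The partner genes of each helper lineage were read beside the members, from lists of regulators, receptors and cytokines. Over all tested genes, none of 12 Th1, 10 Th2, 10 Th17 and 8 Tfh partners was called in any comparison, where at most 0.485% of genes were. In the fit of genes above background, partners were called higher than CD4conv in pregnant uterine Treg, where 4.11% of genes were: 1 of 7 for Th1, 4 of 7 for Th2, 2 of 4 for Th17 and 3 of 5 for Tfh. In uterine Treg, where 3.12% were, 2 of 4 Th17 and 2 of 5 Tfh partners were called higher and none of 7 Th1 or 7 Th2 partners. None of the 4 lists had a partner called lower than CD4conv in that fit. Genes entered that fit by their mean share over all 16 libraries, 12 of them Treg, so genes high in CD4conv alone entered less easily. Against node Treg, 1 partner of the Th1, 1 of the Th17 and 1 of the Tfh list was called higher in uterine Treg, with 0.932% of genes, and 1 of the Th2 list lower, with 0.36%. Against CD4conv, the median log2 fold changes of the 4 lists were 0.30, 0.63, 0.55 and 1.22 in pregnant uterine Treg and -0.20, 0.57, 0.17 and 0.84 in uterine Treg. All 8 lie above the medians of the member genes.

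Cxcr3, the chemokine receptor of Th1 cells and of T-bet-expressing Treg, was at 181, 100, 188 and 58.5 CPM in pregnant uterine Treg, 55.2, 312, 118 and 72.3 CPM in uterine Treg, 24.0, 33.4, 28.5 and 21.5 CPM in node Treg, and 174, 160, 122 and 181 CPM in CD4conv. All uterine groups were high and overlapped, and only node Treg were low. The log2 fold change of uterine Treg over node Treg was 2.48 ± 0.69 (edgeR adjusted p = 1.00), without overlap, and 2.46 with adjusted p = 0.00337 in the genes above background. Over all genes it was 1.24 without uterine Treg 2, the library with most Cxcr3. Il12rb1, a chain of the interleukin 12 receptor, averaged 25.6 ± 13.7 CPM in pregnant uterine Treg, 40.8 ± 30.7 in uterine Treg and 12.8 ± 8.29 in CD4conv, with overlap. Tbx21, which controls Cxcr3 in T cells, averaged 9.92 ± 6.66 CPM in uterine Treg, against 6.22 ± 1.02 CPM in node Treg, with overlap.

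Among Th2 partners, Il1rl1, the interleukin 33 receptor of Th2 cells and tissue Treg, was at 218, 113, 189 and 84.5 CPM in pregnant uterine Treg and 36.6, 20.4, 41.1 and 46.3 CPM in CD4conv, or 2.12 ± 0.59 as a log2 fold change (edgeR adjusted p = 0.175; 0.000366 in the genes above background). Ccr8, a chemokine receptor of Th2 cells and Treg, averaged 24.0 ± 6.23 CPM in uterine Treg, against 113 ± 28.0 CPM in node Treg, a log2 fold change of -2.42 ± 0.56 (adjusted p = 0.658; 0.0198 in the genes above background). Gata3, picked after its values were seen, averaged 173 ± 74.5 CPM in pregnant uterine Treg, 204 ± 93.9 in uterine Treg, 198 ± 33.3 in node Treg and 119 ± 34.2 in CD4conv. Its groups overlapped.

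Among Th17 partners, Il22, a cytokine that acts on epithelium, was at 0, 0, 0.856 and 0 CPM in pregnant uterine Treg, 0, 0.178, 0 and 0 CPM in uterine Treg and 7.00, 4.15, 3.52 and 3.52 CPM in CD4conv (edgeR adjusted p = 0.467 and 0.161 against CD4conv), without overlap. Ccr6, the Th17 and Treg chemokine receptor, ran the opposite way, at 57.4 ± 24.8 CPM in pregnant uterine Treg, 45.3 ± 28.0 in uterine Treg and 11.95 ± 5.80 in CD4conv. Its log2 fold changes against CD4conv were 2.05 ± 0.69 and 1.69 ± 0.68 (edgeR adjusted p = 0.439 and 0.701). In the genes above background the adjusted p was 0.00112 and 0.00511. Node Treg libraries were at 79.4, 66.7, 61.1 and 61.2 CPM. Rora, a nuclear receptor of Th17 and tissue Treg cells picked after its values were seen, gave 1.78 ± 0.63 in pregnant uterine Treg and 1.87 ± 0.63 in uterine Treg against CD4conv (adjusted p = 0.547 and 0.408; 0.00221 and 0.00178 in the genes above background).

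Among Tfh partners, Sh2d1a, the adaptor SAP that Tfh cells need for contact with B cells, was at 99.2 ± 19.4 CPM in pregnant uterine Treg, 77.0 ± 23.6 in uterine Treg and 30.1 ± 11.5 in CD4conv. Its log2 fold changes against CD4conv were 1.61 ± 0.50 and 1.15 ± 0.49 (edgeR adjusted p = 0.301 and 0.769). In the genes above background the adjusted p was 0.00161 and 0.0134. Node Treg libraries were at 72.6, 61.0, 76.8 and 49.3 CPM. Cxcr5, the follicle-homing receptor, was at 19.1 ± 8.10 CPM in pregnant uterine Treg, 23.5 ± 6.70 in uterine Treg and 6.97 ± 1.26 in CD4conv. Its node Treg libraries were at 26.7, 29.5, 30.3 and 40.4 CPM. Both uterine Treg groups lay wholly above CD4conv, as did 1.31% of tested genes in pregnant uterine Treg and 1.68% in uterine Treg. The nearest libraries were pregnant uterine Treg 2 at 8.78 CPM and CD4conv 2 at 8.70 CPM. Over all genes Cxcr5 was not called. Bcl6, picked after its values were seen, overlapped between all groups, with 0 to 58.4 CPM within uterine Treg alone.

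Of 13 other T cell cytokines and TNF family ligands, 12 were tested. Over all genes 1 of them, Fasl, was called lower than CD4conv in both uterine Treg groups. Of all tested genes, 0.399% were called lower in pregnant uterine Treg and 0.485% in uterine Treg. Fasl, the Fas ligand with which effector lymphocytes kill target cells, was at 11.3, 10.2, 9.28 and 5.32 CPM in pregnant uterine Treg, 14.2, 9.62, 11.5 and 24.7 CPM in uterine Treg, 6.03, 15.7, 11.6 and 8.60 CPM in node Treg, and 102, 31.4, 38.3 and 142 CPM in CD4conv. Every Treg library lay below every CD4conv library. Against CD4conv, its log2 fold change was -3.08 ± 0.57 in pregnant uterine Treg (edgeR adjusted p = 0.00727) and -2.62 ± 0.57 in uterine Treg (adjusted p = 0.0281). Its highest CD4conv libraries were 5 and 1, as for Ifng. The summed NK and CD8 markers were also higher in CD4conv, and their part in the Fasl level was not tested. The adjusted p in uterine Treg rose to between 0.0646 and 0.133 without any 1 of CD4conv 1, CD4conv 5 or the 4 uterine Treg libraries, and to 0.0591 without CD4conv 2 and 3 together. In pregnant uterine Treg it was 0.0513 without pregnant uterine Treg 2, 0.0546 with only the 2 groups fitted and 0.0512 without the high-background libraries.

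Lta, the neighbour of Tnf at 1157 bases, which encodes lymphotoxin alpha of lymph node development, was at 12.3, 11.7, 17.9 and 0 CPM in pregnant uterine Treg, 30.8, 32.8, 2.97 and 5.94 CPM in uterine Treg, 116, 73.9, 51.8 and 49.8 CPM in node Treg, and 28.3, 22.2, 12.4 and 16.4 CPM in CD4conv. Node Treg alone were high, with a log2 fold change of -2.04 ± 0.92 in uterine Treg against them (edgeR adjusted p = 1.00). None of the 12 tested neighbours of the member genes was called in any comparison. Il5, the eosinophil growth factor gene beside Il13, averaged 1.51 ± 1.69 CPM in pregnant uterine Treg, 0.257 ± 0.298 in uterine Treg, 4.34 ± 4.61 in node Treg and 2.53 ± 1.99 in CD4conv, with overlap. Lta was picked for its values after they were seen.

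**Figure D5:**
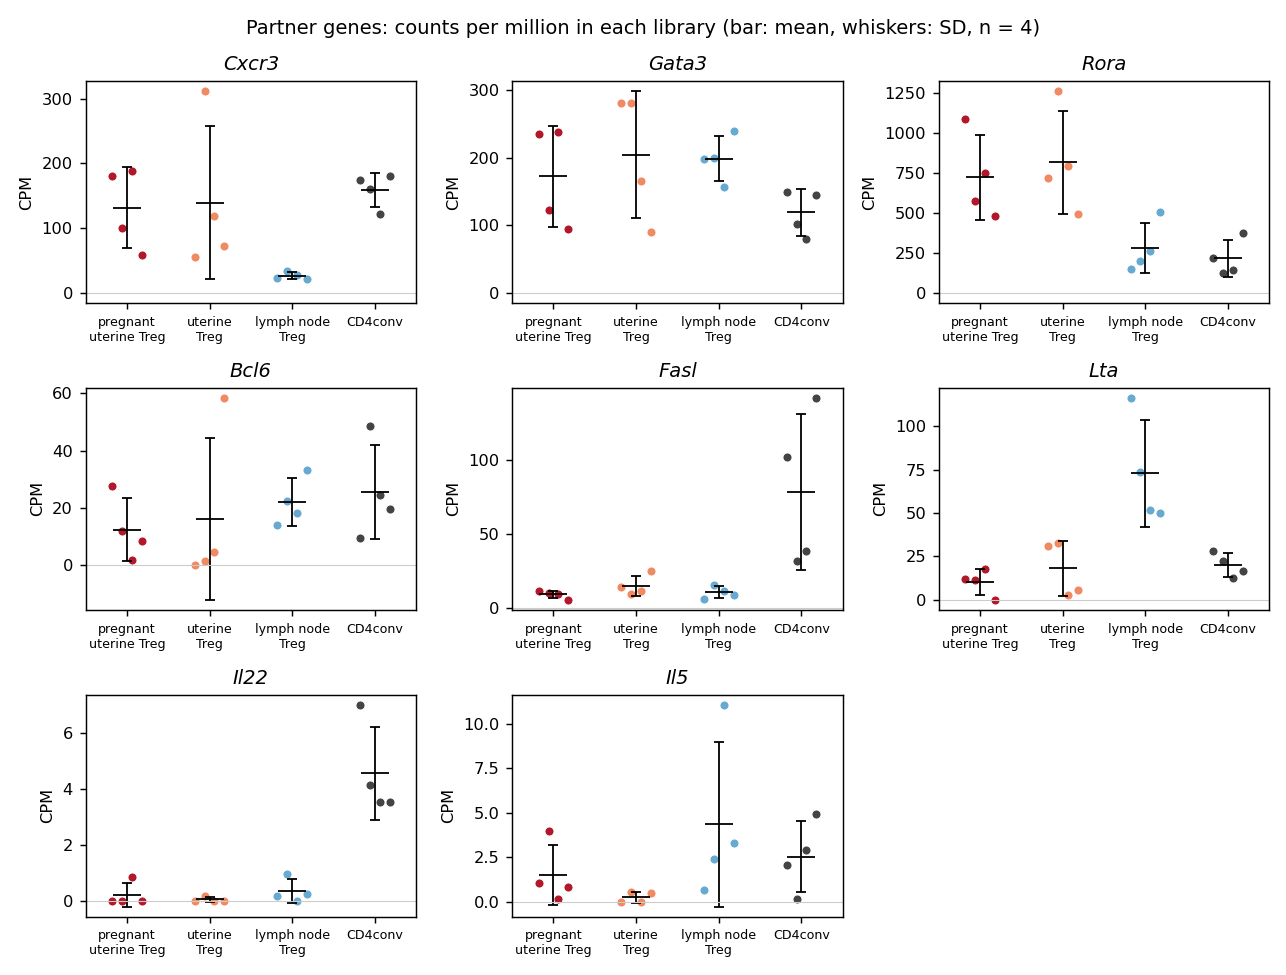
Level in CPM (vertical axis) of 8 partner genes in every library of pregnant uterine Treg, uterine Treg, node Treg and CD4conv (left to right); bars are means and whiskers SD, n = 4. Fasl and Il22 are highest in all 4 CD4conv libraries, Cxcr3 is low in node Treg alone (21.5 to 33.4 CPM), and Lta is high in node Treg alone (49.8 to 116 CPM).

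The receptors that receive these cytokines, 13 genes, were all tested and none was called over all genes; of the 10 above background, 1 was called higher than CD4conv in pregnant uterine Treg (against 4.11% of genes) and 2 in uterine Treg (against 3.12%). Il2ra, the CD25 chain that the sort gates used, averaged 125 ± 47.9 CPM in pregnant uterine Treg, 96.1 ± 30.6 in uterine Treg, 295 ± 62.1 in node Treg and 23.2 ± 4.38 in CD4conv. Uterine Treg sorted as CD25- thus had more Il2ra transcript than CD4conv in every library, at log2 2.38 ± 0.59 in pregnant uterine Treg and 1.89 ± 0.58 in uterine Treg (edgeR adjusted p = 0.0827 and 0.262; 4.07e-06 and 3.62e-05 in the genes above background). Tnfrsf1a, a receptor of Tnf, averaged 21.4 ± 4.95 CPM in pregnant uterine Treg, 13.1 ± 5.90 in uterine Treg and 36.2 ± 17.6 in CD4conv.

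Upstream of the cytokine genes, none of 11 inducible activators (among them Irf4 and Jun) and none of 7 decay factors of cytokine messages was called over all genes. Of those above background, Irf4, 1 of 10 activators, was called higher than CD4conv in uterine Treg (adjusted p = 0.0213, against 3.12% of genes). Zc3h12a, 1 of 4 decay factors, was called higher in pregnant uterine Treg (adjusted p = 0.0431, against 4.11%) and in uterine Treg (adjusted p = 0.00435). Zc3h12a, the ribonuclease regnase-1 that degrades cytokine messages, was at 139 ± 81.4 CPM in pregnant uterine Treg, 191 ± 62.6 in uterine Treg and 75.7 ± 16.5 in CD4conv. Zc3h12d, a related ribonuclease, was at 33.9 ± 7.10, 38.9 ± 22.3 and 13.2 ± 2.43 CPM in those groups, and its node Treg libraries at 61.8, 58.1, 55.3 and 44.5 CPM. Irf4 averaged 108 ± 72.8 CPM in pregnant uterine Treg, 184 ± 70.7 in uterine Treg and 76.6 ± 18.3 in CD4conv. Jun averaged 318 ± 202, 313 ± 102 and 532 ± 322 CPM in the same groups.

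Downstream, of 11 genes of the response to interferon gamma, 1 was called over all genes, lower in uterine Treg as were 0.485% of genes. Of the 8 above background, 3 were called higher than CD4conv in pregnant uterine Treg, against 4.11% of genes, and 1 in uterine Treg, against 3.12%. Ciita, the transactivator of major histocompatibility complex class II genes, was at 3.19, 1.25, 3.40 and 21.8 CPM in uterine Treg, against 32.3, 34.5, 77.8 and 20.8 CPM in CD4conv. Pregnant uterine Treg, at 6.64, 33.9, 11.6 and 20.4 CPM, overlapped with CD4conv. Node Treg were at 4.13, 8.58, 7.56 and 3.54 CPM. The log2 fold change of uterine Treg against CD4conv was -3.15 ± 0.72 (edgeR adjusted p = 0.0417), with 1 uterine Treg library inside the CD4conv range. Ciita is also used by dendritic cells and macrophages, whose markers were high in CD4conv, and their part in its level was not tested. The adjusted p lay between 0.0596 and 0.269 without any 1 of CD4conv 1, 2 and 3 and uterine Treg 1, 2 and 3, the highest being without CD4conv 3, the library with most macrophage markers. It was 0.107 with RLE size factors and 0.112 with only the 2 groups fitted, and without CD4conv 2 and 3 the fold change was -2.28 (adjusted p = 1.00).

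Genes whose level followed a member most closely over the 16 libraries were ranked by the mean absolute difference of centred log2(CPM + 1) values among 11795 genes at 10 CPM or more, as a description. For Ifng they were Nceh1 at 0.45, Snx9 at 0.50 and Tmem229b at 0.52, where the median gene was at 1.26. For Tbx21 they were Inafm2 and Dap at 0.55 and Scpep1 at 0.58, beside a median of 1.33. For Cd40lg they were Nkg7 at 0.64, Eif1a at 0.66 and Creg1 at 0.67, beside 1.35. For Tnf they were Coasy at 0.45, Ppp2r3d at 0.46 and Nme1 at 0.48, beside 1.15. Nkg7, a granule protein gene of NK and cytotoxic T cells, averaged 21.1 CPM in pregnant uterine Treg, 18.2 in uterine Treg, 46.9 in node Treg and 156 in CD4conv.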

How the data were processed

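Sorted cells of 16 pooled samples were profiled by RNA-seq from small inputs (SMART-Seq v4 and Nextera XT, per the labels' protocols, kits that do not mark strand). The authors deposited raw read counts per gene, made with Trimmomatic, HISAT2, SAMtools and featureCounts on build GRCm38, with DESeq2 also named, per the submitters' processing notes; tool versions: not given in the sources used here. Single-library files equal the joint table in 16 of 16 libraries. GENCODE M21 named 49326 of 49585 genes. CPM were computed per library. Counts were tested with edgeR 4.0.16 (R 4.3.3, quasi-likelihood, TMM, filterByExpr), 1 fit of 4 groups over 16 libraries and 30096 genes, and p-values adjusted by Benjamini-Hochberg (calls under 0.05); the script was tested on simulated data. DESeq2 1.42.0 was an alternative. Labels give separate pools, so p-values measure spread between pools.

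Members and gene lists were chosen with earlier results of these data known. Beyond the 9 members, the text names, per list, genes past the threshold at 10 CPM or more, otherwise the 2 with the smallest p, and 3 genes of closest profile per member, and says where a gene was chosen otherwise. Floors are 3 counts and cover counting error only. Replicate numbers are shared between groups. Same-numbered libraries did not deviate together throughout, and the main tests are unpaired. Whether same-numbered pools shared mice cannot be told from that check, and a fit with a replicate block was an alternative.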

Additional observations from a re-analysis of the deposited data

Results flagged for a closer look

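In 4 of 36 sets of 4 libraries (9 genes in 4 groups), 1 library stood apart from the other 3 by a gap larger than the 95% critical value of Dixon's test for 4 samples, as a share of the whole range, where chance gives about 1 in 20. Il2 was at 8.06 CPM in uterine Treg 3, with the other 3 uterine Treg libraries between 0.178 and 1.48 CPM. Il13 was at 1.68 CPM in pregnant uterine Treg 4, with the others between 0 and 0.209 CPM. Il13 was at 2.97 CPM in uterine Treg 5 and at 0.476 CPM in node Treg 1, with the other libraries of each group at 0. The Il13 values rest on 6, 6 and 3 counts. Where the other 3 libraries are at 0, any count makes the gap the whole range. The number of flags can therefore not be read against 1 in 20.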

How the results depend on the processing

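For the 8 tested genes, 120 of 123 alternative values kept direction and call in pregnant uterine Treg against CD4conv, 114 of 123 in uterine Treg against CD4conv, 99 of 114 in uterine against node Treg and 105 of 115 in pregnant uterine against uterine Treg; 0 calls were lost, as none was made at first. Members called lower in uterine Treg against CD4conv numbered 2 with DESeq2 (Il2 and Tbx21), 1 without the low count filter (Il2) and 1 with only the 2 groups compared (Ifng). They numbered 1 with the replicate block (Ifng, log2 -2.58), 1 without the high-background libraries (Il2), and 0 to 1 with 1 library left out. With 1 library left out, 69 to 165 of all tested genes were called lower. In pregnant uterine Treg the members called lower numbered 1 with DESeq2 and 1 in the genes above background, both Ifng. Of the genes above background, 4.28% were called lower there. Where the share of all genes called is not given, these counts cannot be read as a result about the members. The causes were not tested. Direction turned without the high-background libraries for Cd40lg (0.17), Il17a (-4.89) and Il4 (-1.44) in uterine against node Treg. With the replicate block it turned for Ifng in pregnant uterine against uterine Treg (0.24), Il17a in pregnant uterine Treg against CD4conv (1.25) and Tnf in uterine against node Treg (-0.41). Without CD4conv 2 and 3 it turned for Tnf in uterine Treg against CD4conv (0.034).

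With 1 library left out, uterine minus node Treg values ran between -1.69 and 0.19 for Cd40lg, -0.24 and 0.41 for Ifng, -0.15 and 1.11 for Il17a, -0.57 and 0.79 for Il4, -0.23 and 0.88 for Tbx21 and -0.90 and 0.38 for Tnf. Pregnant uterine minus uterine Treg values ran between -0.51 and 1.66 for Cd40lg, -0.99 and 0.23 for Ifng, -0.52 and 1.60 for Il17a, -0.038 and 0.76 for Il21, -0.57 and 1.38 for Il4, -0.53 and 1.25 for Tbx21 and -1.84 and -0.34 for Tnf. Over all genes, DESeq2 called 43 higher and 292 lower in uterine Treg against CD4conv (10 and 146 with edgeR), 43 and 268 in pregnant uterine Treg (10 and 120), 10 and 20 in uterine against node Treg and 7 and 11 in pregnant uterine against uterine Treg (0 with edgeR). Removing the high-background libraries, chosen after seeing the data like the removal of CD4conv 2 and 3, moved the median of all genes by -0.401 in uterine Treg against CD4conv. Among the genes above background 147 were called higher and 141 lower in uterine Treg against CD4conv, and 194 and 202 in pregnant uterine Treg; without the high-background libraries 108 and 319, and 125 and 105; without CD4conv 2 and 3, 1 and 23, and 1 and 26. RLE size factors moved that median by 0.185, 0.127 and 0.121 in the comparisons of uterine Treg and of pregnant uterine Treg with CD4conv and of uterine with node Treg. Same-numbered libraries had correlations of their deviations between -0.345 and 0.412 over the comparisons. For uterine Treg with CD4conv they lay between 0.00414 and 0.215. Such correlations over all genes cannot decide whether same-numbered pools shared mice, as background also differed between libraries. Under the block Fasl in pregnant uterine Treg (-2.60, edgeR adjusted p = 0.0831) and Ciita in uterine Treg (-3.27, adjusted p = 0.102) were not called. A count of 0 allows up to 0.197 to 1.75 CPM per library.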
